A study of Mus musculus with 16 samples.

Results

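Glycolysis and the response to low oxygen were followed in mouse peritoneal macrophages through 36 genes taken from a fixed list of names: 18 glycolytic enzymes, 4 glucose or lactate transporters, 4 kinases that regulate glycolytic flux, and 10 genes of the hypoxia-inducible factor (HIF) system. The array named 27670 genes in all, and 35 of the 36 had a probe. Gapdh, glyceraldehyde-3-phosphate dehydrogenase, had none under its name or a synonym and is not analysed here. All 35 genes on the array were well above background on every array of at least 1 group and were tested, so no member was lost to the filter on dim probes.

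The cells were adherent peritoneal cells of male mice of the strain labelled BALB/cByJ-Lpin1fld/J. Control mice were heterozygotes, which carry the fld allele on 1 copy, so the controls are not wild type. The other mice were labelled fld, for fatty liver dystrophy, a mutation of Lpin1. Lpin1 encodes lipin-1, a phosphatidate phosphatase. Cells of each genotype were left untreated or given lipopolysaccharide (LPS, the bacterial ligand of TLR4) at 100 ng/ml for 5 h in RPMI medium without serum. Each of the 4 groups had 4 single-colour arrays, 16 in all. The design addresses whether lipin-1 alters gene expression when TLR4 is stimulated. The labels do not say that arrays of a group came from separate mice, although the design text speaks of 4 mice of each genotype. If they did not, the p-values measure technical spread.

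Glycolysis splits glucose into pyruvate, and lactate dehydrogenase turns pyruvate into lactate. HIF-1 alpha and HIF-2 alpha are transcription factor subunits that prolyl hydroxylases mark for destruction while oxygen is present, and many glycolytic genes are among their known targets. Macrophages stimulated through TLR4 are known to raise glucose uptake and glycolysis and to accumulate HIF-1 alpha even where oxygen is plentiful.

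Levels below are log2 of the scanner's processed intensity minus the 75th percentile of the same array, so they compare arrays for 1 probe and not genes with each other. Changes are differences of mean log2 levels with the standard error (SE) of limma, and adjusted p-values are two-sided, from limma with Benjamini-Hochberg adjustment over 17466 features. A gene is said to rise, fall or change where that adjusted p is under 0.05.

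Array brightness, taken as the 75th percentile of processed signals, ran from 189 to 627, and the lowest values belonged to replicates 4 and 2 of the LPS-treated fld arrays (189 and 251). These arrays had 58.7% and 59.7% of spots well above background, and no spot of a member was saturated. Arrays of the same group had pairwise correlations across features of 0.961 to 0.993. Each group had its own slide, and effects of slide and group cannot be told apart. Of the 4 Lpin1 probes, the 3 dimmer ones were well above background on all 8 control arrays. On the arrays labelled fld they lay between -7.35 and -4.58 in replicates 1 to 3 and between -3.54 and -1.36 in replicate 4 of each treatment, so the replicate 4 arrays go against their label and the group is called labelled fld. The brightest Lpin1 probe did not pass the test between genotypes (-0.13 untreated and 0.28 with LPS). Il6, an inflammatory cytokine gene, rose with LPS by 5.05 in control arrays and 3.26 in arrays labelled fld. The difference between these Il6 changes was -1.79 and did not pass the test. Of 4 genes used as checks, Il6 among them, none passed a test between genotypes. In cells labelled fld against control they reached 1.84 untreated and lay between -0.17 and 0.28 with LPS. All 8 macrophage markers were well above background in every group, and so were 6 of 6 B cell and 7 of 7 mast cell markers.

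LPS moved the members in both directions. In control cells 8 of 35 members rose and 11 fell, while 14.5% of all features rose and 14.9% fell. The median change of the members was -0.23 and that of all features 0.03. In cells labelled fld 9 members rose and 12 fell, while 21.6% of all features rose and 18.0% fell. Their median was -0.09, beside 0.06 for all features. The 7 genes that rose in both genotypes were the flux regulator Pfkfb3, the subunit gene Hif1a, the HIF targets Ndrg1 and Ero1l, the transporter gene Slc2a1, and the enzyme genes Hk2 and Ldha. The 9 genes that fell in both were Ldhb, Egln3, Pfkl, Pdk1, Tpi1, Bnip3, Egln1, Aldoa and P4ha1. No member rose in one genotype and fell in the other, and 29 of 35 changes had the same sign. The same agreement was not counted over all features, so it is not read as a trait of the members.

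Without both arrays labelled fld replicate 4, 8 members rose and 7 fell in the cells labelled fld. Scaling by each array's median in place of the 75th percentile gave 6 that rose and 15 that fell there. The median change of all features there was 0.05 without the replicate 4 arrays and -0.18 with median scaling. These counts are not read as results about the members. Markers of other cells moved with LPS too. The summed level of the mast cell markers was 4.17 to 6.50 on untreated control arrays and 7.34 to 7.81 with LPS, and 5.41 to 7.12 and 6.92 to 7.42 on the arrays labelled fld. For 7 neutrophil markers it was 0.56 to 1.49 untreated and 3.17 to 3.99 with LPS in control, and 0.67 to 1.06 and 4.25 to 4.74 on the arrays labelled fld. Of 4 neutrophil markers tested, 2 rose and 1 fell in each genotype. Their changes ran from -2.88 to 3.46 in control and from -1.65 to 4.49 in cells labelled fld. The neutrophil granule gene Ngp was not well above background on any LPS-treated array. Of 8 macrophage markers, 1 rose and 2 fell in control, and 1 rose and 4 fell in cells labelled fld, from Cd14 at 1.31 and 1.06 to Csf1r at -1.71 and -2.43. Their summed level was 9.97 to 10.14 untreated and 10.13 to 10.63 with LPS in control, and 10.17 to 10.30 and 10.41 to 10.70 on the arrays labelled fld. Of 7 mast cell markers 1 rose in each genotype. For 4 red cell markers the summed level was 0.25 to 7.05 untreated and -1.74 to 5.61 with LPS in control. On the arrays labelled fld it was 2.46 to 7.55 and 0.06 to 8.68, so arrays of the same group differed widely. The part of these markers in the members' changes was not tested, and in bulk RNA fewer cells of a type and less RNA per cell cannot be told apart.

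**Figure D1:**
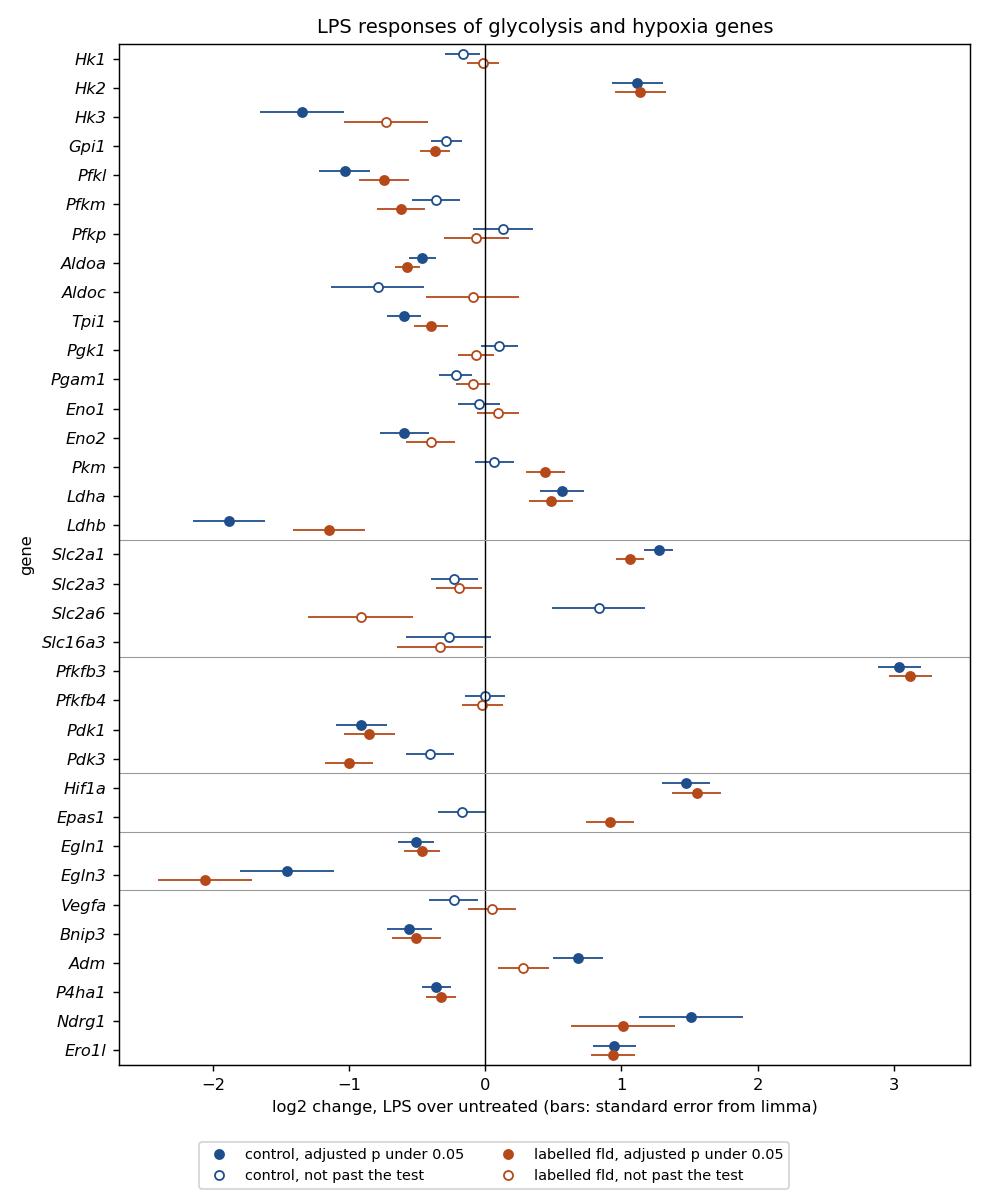
Each row is a member gene and the horizontal axis is its log2 change with LPS over untreated, in control arrays (blue) and in arrays labelled fld (orange). Filled points have an adjusted p under 0.05, bars are the SE from limma, and the grey lines separate the roles. Pfkfb3 stands at 3.04 and 3.12, and most glycolytic enzymes lie at or left of 0.

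The promoter sequences of the genes that rose and of those that fell with LPS were set beside each other, since HIF binds a short core in the DNA of its targets. In 300-base windows around the start of transcription (RefSeq, GRCm38.p6), 33 of the 36 genes had sequence. Epas1, Ndrg1 and Slc2a3 were without one. The core was searched as ACGTG or GCGTG on both strands. The E-box CACGTG holds ACGTG on both strands and therefore counts as 2 cores. A core stood in 30 of the 33 genes (90.91%), against 46.73% of all 27025 genes with a window and 43.12% of genes with only 1 window. Many of the 36 genes are known as HIF targets, and the part of that in this share was not tested. The list was fixed by name, so the share is no finding from the arrays.

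Genes of either direction held a core. It stood in 6 of 6 genes that rose in both genotypes, in 8 of 9 that fell in both and in 15 of 17 of the others measured. The fallen gene without it was Tpi1. CACGTG stood in Hif1a, Ldha, Pfkfb3, Bnip3 and Pfkm, 15.15% of the 33 genes, against 8.09% of all genes. The NF-kB consensus was in 6 of the 33 (18.18%), against 9.55% of all genes, and 1 of those 6, Ero1l, rose in both genotypes. A match of letters is a description of the sequence and no evidence of binding.

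The parts of the windows before the start are printed below for 4 genes that rose (Pfkfb3, Ldha, Hif1a and Slc2a1) and 2 that fell (Bnip3 and Egln3), 5′ to 3′ in the direction of the gene, with each core in capitals (a core of the other strand reads CACGT or CACGC). Bnip3, with 5 cores in this stretch, had the most of the genes that fell. Over whole windows the genes that rose had 2 to 7 cores with a median of 3, and those that fell 0 to 5 with a median of 1. The 17 other measured genes had 0 to 5 with a median of 2. Where a gene had several windows, the one with the most cores was counted, and each CACGTG added 2. CACGTG stood in 3 of the 6 that rose and 1 of the 9 that fell. These counts were not tested. Pfkfb3 is on the minus strand at chr2:11502091-11502340, Ldha on the plus strand at chr7:46845554-46845803, Hif1a on the plus strand at chr12:73907617-73907866, Slc2a1 on the plus strand at chr4:119108495-119108744, Bnip3 on the minus strand at chr7:138909507-138909756 and Egln3 on the minus strand at chr12:54203875-54204124.
Pfkfb3: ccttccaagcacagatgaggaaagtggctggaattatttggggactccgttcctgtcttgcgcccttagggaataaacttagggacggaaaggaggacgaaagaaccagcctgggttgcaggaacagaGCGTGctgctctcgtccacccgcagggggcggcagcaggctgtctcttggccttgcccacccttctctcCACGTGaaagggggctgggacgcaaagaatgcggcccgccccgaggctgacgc
Ldha: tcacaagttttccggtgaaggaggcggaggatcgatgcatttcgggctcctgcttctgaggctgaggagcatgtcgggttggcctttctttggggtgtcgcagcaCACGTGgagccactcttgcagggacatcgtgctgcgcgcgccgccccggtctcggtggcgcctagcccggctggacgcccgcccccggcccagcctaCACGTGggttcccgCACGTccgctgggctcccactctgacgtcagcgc
Hif1a: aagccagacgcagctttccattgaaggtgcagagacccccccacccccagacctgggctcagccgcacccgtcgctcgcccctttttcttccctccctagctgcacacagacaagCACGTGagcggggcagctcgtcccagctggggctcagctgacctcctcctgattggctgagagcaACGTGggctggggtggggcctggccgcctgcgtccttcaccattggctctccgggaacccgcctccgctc
Slc2a1: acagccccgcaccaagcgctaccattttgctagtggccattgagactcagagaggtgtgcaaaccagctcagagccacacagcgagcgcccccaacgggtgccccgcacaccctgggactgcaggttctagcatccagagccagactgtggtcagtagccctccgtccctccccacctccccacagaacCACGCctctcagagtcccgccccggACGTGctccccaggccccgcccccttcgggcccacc
Bnip3: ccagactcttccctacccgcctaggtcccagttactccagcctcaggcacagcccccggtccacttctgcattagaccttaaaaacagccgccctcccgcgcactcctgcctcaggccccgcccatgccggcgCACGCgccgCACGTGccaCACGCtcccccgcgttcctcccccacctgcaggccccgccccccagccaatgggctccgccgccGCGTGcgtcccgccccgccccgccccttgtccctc
Egln3: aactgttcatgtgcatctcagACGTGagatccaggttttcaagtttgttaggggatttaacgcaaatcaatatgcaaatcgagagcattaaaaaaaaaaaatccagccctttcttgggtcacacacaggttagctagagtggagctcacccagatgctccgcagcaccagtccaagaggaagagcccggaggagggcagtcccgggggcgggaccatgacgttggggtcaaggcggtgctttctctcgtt
In these stretches Ldha has 5 cores, Pfkfb3 3, Hif1a 3, Slc2a1 2 and Egln3 1. Pfkfb3 and Ldha each have a second start in the table, at chr2:11553930-11554179 and chr7:46846832-46847081, with 1 core each, not printed. Between the start and the nearest core before it lay 47 bases in Pfkfb3, 29 in Ldha, 65 in Hif1a and 31 in Slc2a1. That distance was 30 bases in Bnip3 and 224 in Egln3. Cores after the start were left out of these distances.

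Of the genes for glucose entry and its first phosphorylation, Slc2a1 and Hk2 rose with LPS. Slc2a1 encodes the glucose transporter GLUT1. Its levels were 4.49, 4.61, 4.68 and 4.66 on untreated control arrays and 5.75, 5.88, 5.91 and 5.99 with LPS. On the arrays labelled fld they were 4.91, 4.65, 5.09 and 4.65 untreated and 5.89, 5.90, 5.85 and 5.91 with LPS. Every LPS-treated array was higher than every untreated array, and the LPS-treated arrays of both genotypes overlapped. The change was 1.27 (SE 0.10, adjusted p = 6.88e-07) in control and 1.06 (SE 0.10, adjusted p = 3.39e-06) in cells labelled fld.

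Hk2, a hexokinase that phosphorylates glucose at the mitochondrial surface, moved like Slc2a1 in direction. Its levels were 2.26, 2.46, 2.54 and 2.76 untreated and 3.52, 3.16, 4.04 and 3.77 with LPS in control. In cells labelled fld they were 2.36, 2.48, 2.27 and 2.35 untreated and 3.70, 3.09, 3.83 and 3.41 with LPS. The untreated and LPS-treated arrays of a genotype did not overlap. Hk2 rose by 1.12 (SE 0.19, adjusted p = 0.000375) in control and by 1.14 (SE 0.19, adjusted p = 0.000296) in cells labelled fld.

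The other hexokinase genes did not follow Hk2. Hk1, the widely expressed form, changed by -0.16 and -0.02, and neither passed the test. Hk3, the hexokinase of myeloid cells, had levels of 4.32, 3.99, 2.55 and 3.03 on untreated control arrays and 2.33, 2.25, 1.70 and 2.22 with LPS. Untreated control replicates 1 and 2 were far above replicates 3 and 4, yet no LPS-treated control array reached any of them. Hk3 fell by 1.35 in control (SE 0.31, adjusted p = 0.00431). Its change in cells labelled fld was -0.73 (adjusted p = 0.0737), and the difference between the genotypes' changes was 0.62 (adjusted p = 0.709).

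Of the remaining transporters, none passed the test. Slc2a3, which encodes GLUT3, changed by -0.23 in control and -0.19 in cells labelled fld. Slc16a3, the lactate exporter MCT4, changed by -0.27 and -0.33. Slc2a6, a lysosomal hexose transporter, had values that pointed in opposite directions in the genotypes and is described with the genotype comparisons.

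Among the 17 glycolytic enzymes measured, 2 rose and 6 fell in control, and 3 rose and 6 fell in cells labelled fld. Their median change was -0.29 in control and -0.09 in cells labelled fld. Of all features 14.5% rose and 14.9% fell in control, and 21.6% rose and 18.0% fell in cells labelled fld. The median of all features was 0.03 and 0.06. The enzyme counts were not tested against these shares. At the committed step of phosphofructokinase, the liver-type subunit gene Pfkl fell and the platelet-type gene Pfkp did not pass the test. Pfkl levels were 1.20, 1.43, 1.71 and 1.70 untreated and 0.06, 0.41, 0.84 and 0.60 with LPS in control. They were 1.37, 1.59, 0.78 and 1.12 untreated and 0.59, 0.46, 0.49 and 0.35 with LPS in cells labelled fld. The treated arrays were lower than the untreated arrays of their genotype throughout. Pfkl fell by 1.03 (adjusted p = 0.000697) and by 0.74 (adjusted p = 0.0059), each with an SE of 0.19.

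Pfkm, the muscle-type subunit, had changes of -0.36 in control (adjusted p = 0.136) and fell by 0.62 in cells labelled fld (adjusted p = 0.0119). Without both arrays labelled fld replicate 4 the latter was -0.49, with an adjusted p of 0.0786. Pfkp changed by 0.13 and -0.07. Its LPS-treated fld arrays split widely, at 2.61, 3.34, 2.35 and 3.66, with replicates 2 and 4 above and replicates 1 and 3 below all 4 LPS-treated control arrays (2.96 to 3.13). Without replicates 2 and 4 Pfkp was at -0.58 with LPS in cells labelled fld (adjusted p = 0.00659) and at -0.58 against control with LPS (adjusted p = 0.0137).

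The enzymes of the middle of the pathway moved little or fell. Aldoa, the main aldolase gene, fell by 0.46 (SE 0.10) in control and by 0.57 (SE 0.09) in cells labelled fld. Its untreated levels were 7.89 to 8.14 and its LPS levels 7.32 to 7.64 over both genotypes, with 1 LPS-treated control spot left out. Tpi1, triosephosphate isomerase, fell by 0.60 and 0.40 (adjusted p = 0.00213 and 0.0212). The fall of Tpi1 in cells labelled fld was -0.29 without both replicate 4 arrays (adjusted p = 0.125). Pgk1, Pgam1 and Eno1, which carry out the later payoff steps, passed no test in either genotype, with changes between -0.22 and 0.10.

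Gpi1, glucose-6-phosphate isomerase, gave different answers with different probes. The brighter probe changed by -0.29 in control (adjusted p = 0.0718) and fell by 0.37 in cells labelled fld (adjusted p = 0.0186). The dimmer probe, designed to another transcript record, changed by 0.36 in control and rose by 0.73 in cells labelled fld (adjusted p = 0.0084). Gpi1 stands in the counts above by its brighter probe, and its direction depends on the probe.

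The neuronal-type enolase gene Eno2 fell by 0.59 in control (SE 0.18, adjusted p = 0.0212), and its change in cells labelled fld was -0.40 (adjusted p = 0.0876). A second Eno2 probe fell in both, by 0.57 and 0.60. Aldoc, the brain-type aldolase gene, changed by -0.79 (adjusted p = 0.0974) and -0.09. Its other probe fell in control by 1.02 (adjusted p = 0.014). Pkm, pyruvate kinase, changed by 0.07 in control and rose by 0.44 in cells labelled fld (adjusted p = 0.0247). Its untreated and LPS-treated fld arrays overlapped, at 4.76, 4.79, 5.05 and 4.69 untreated and 5.59, 5.31, 5.36 and 4.81 with LPS. A second Pkm probe changed by 0.32 there (adjusted p = 0.137), and median scaling gave 0.20 (adjusted p = 0.462).

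The 2 lactate dehydrogenase subunit genes went opposite ways. Ldha, whose subunit favours the making of lactate, had control levels of 5.58, 5.31, 5.53 and 5.53 untreated and 5.81, 5.90, 6.26 and 6.26 with LPS. Ldhb, whose subunit favours the use of lactate, had control levels of -0.26, 0.01, 0.56 and -0.12 untreated and -1.57, -2.01, -1.90 and -1.84 with LPS. The treated arrays lay wholly above the untreated ones for Ldha and wholly below them for Ldhb.

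Ldhb in cells labelled fld was at -0.31, 0.64, -0.95 and -0.22 untreated and -1.11, -1.68, -1.33 and -1.30 with LPS, again without overlap. Ldha rose by 0.56 in control (SE 0.16, adjusted p = 0.0152) and by 0.48 in cells labelled fld (adjusted p = 0.0273). Ldha was at 0.35 in control with quantile normalization (adjusted p = 0.0925) and at 0.24 in cells labelled fld with median scaling (adjusted p = 0.336). Ldhb fell by 1.88 in control (SE 0.26, adjusted p = 9.19e-05) and by 1.15 in cells labelled fld (adjusted p = 0.00363). The difference between the Ldhb changes was 0.73 (SE 0.37, adjusted p = 0.583).

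**Figure D2:**
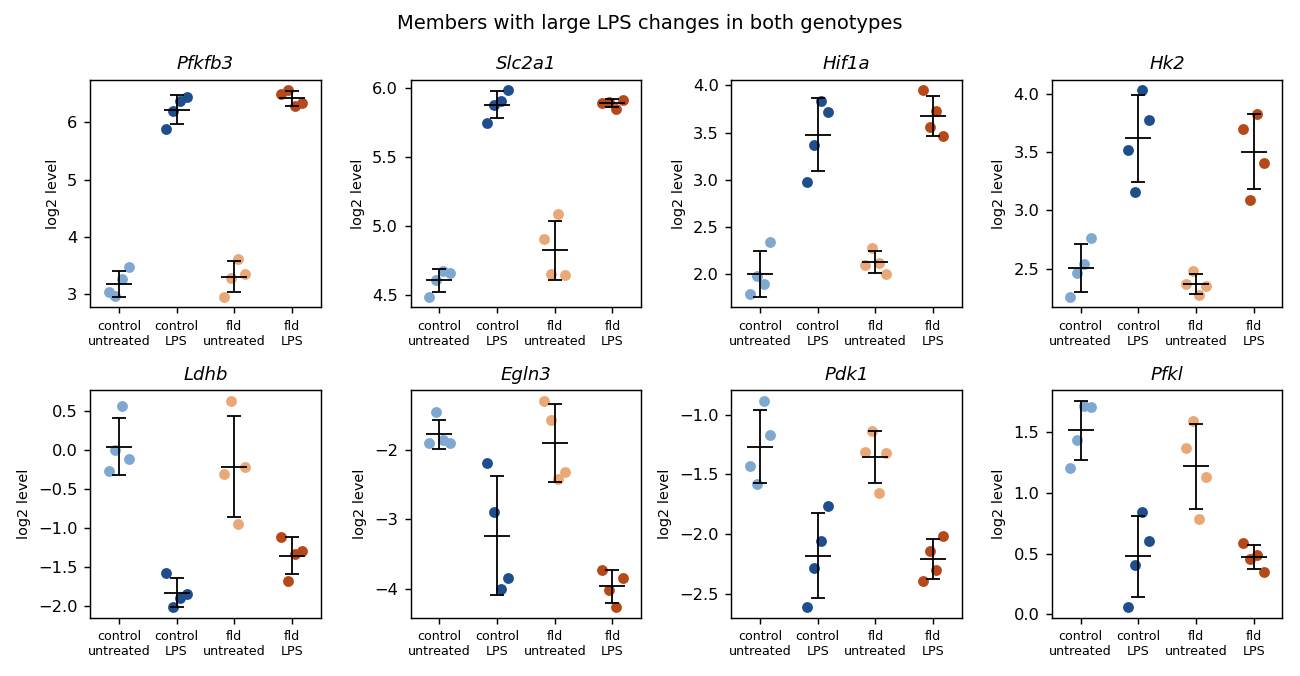
Each panel plots the log2 level of a gene on the vertical axis for the 16 arrays by group, and the bars are the mean and SD of the arrays of a group. Treated and untreated arrays of a genotype stand apart in all 8 panels, upward for Pfkfb3, Slc2a1, Hif1a and Hk2 and downward for Ldhb, Egln3, Pdk1 and Pfkl.

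The largest change of any member was in Pfkfb3, whose enzyme makes fructose 2,6-bisphosphate, the activator of phosphofructokinase. Pfkfb3 lay at 3.04, 2.97, 3.26 and 3.47 on untreated control arrays and at 5.88, 6.20, 6.38 and 6.45 with LPS. It lay at 2.96, 3.28, 3.61 and 3.35 on untreated fld arrays and at 6.49, 6.57, 6.29 and 6.35 with LPS. The gap between treated and untreated arrays was many times the spread within a group. The changes were 3.04 (SE 0.16, adjusted p = 9.52e-09) and 3.12 (SE 0.16, adjusted p = 2.05e-08), and 2 further Pfkfb3 probes gave 2.85 and 2.87 in control and 3.37 and 3.59 in cells labelled fld. Pfkfb4, a related kinase gene, changed by less than 0.03 in either direction.

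Of the kinases that shut pyruvate dehydrogenase, Pdk1 fell in both genotypes. Pdk1 was at -1.43, -1.58, -0.88 and -1.17 untreated and -2.61, -2.28, -2.05 and -1.77 with LPS in control. It was at -1.31, -1.14, -1.66 and -1.32 untreated and -2.39, -2.14, -2.30 and -2.01 with LPS in cells labelled fld. The groups did not overlap in either genotype, and Pdk1, a known HIF target, fell by 0.91 and 0.85 (SE 0.19 each). A dimmer Pdk1 probe pointed the same way, at -0.58 and -0.53, without passing the test. With normexp background correction Pdk1 was at -0.56 in control (adjusted p = 0.0101) and -0.34 in cells labelled fld (adjusted p = 0.07).

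Pdk3, a kinase of the same family, fell in cells labelled fld. Its levels were 0.28, 0.32, -0.05 and 0.46 on untreated fld arrays and -1.22, -0.40, -0.71 and -0.65 with LPS, with no overlap. Pdk3 fell there by 1.0 (SE 0.17, adjusted p = 0.000505). In control its change was -0.41 (adjusted p = 0.095), and the difference between the changes was -0.59 (adjusted p = 0.466).

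Of the genes that sense oxygen, the alpha subunit gene Hif1a rose and the hydroxylase genes fell. Hif1a lay at 1.78, 1.98, 1.90 and 2.34 untreated and 2.98, 3.37, 3.84 and 3.72 with LPS in control. It lay at 2.10, 2.28, 2.11 and 2.00 untreated and 3.95, 3.56, 3.73 and 3.46 with LPS in cells labelled fld. All 8 treated arrays were above all 8 untreated arrays. The change was 1.48 (SE 0.18, adjusted p = 2.24e-05) in control and 1.55 (SE 0.18, adjusted p = 1.32e-05) in cells labelled fld.

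Egln3 encodes the prolyl hydroxylase PHD3, itself a known HIF target. Its levels were -1.90, -1.46, -1.85 and -1.90 untreated and -2.19, -2.90, -4.01 and -3.85 with LPS in control. They were -1.30, -1.57, -2.42 and -2.33 untreated and -3.73, -4.02, -4.27 and -3.84 with LPS in cells labelled fld. Treated arrays were lower throughout, although control LPS replicate 1 was close to the untreated ones, and 1 of the LPS-treated fld arrays was not well above background. Egln3 fell by 1.46 (SE 0.35, adjusted p = 0.00511) and by 2.06 (SE 0.35, adjusted p = 0.00037). With normexp background correction the changes of Egln3 were smaller, -0.74 (adjusted p = 0.0256) and -0.58 (adjusted p = 0.0478).

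Egln1, which encodes PHD2, the main hydroxylase of HIF-1 alpha, fell by 0.51 in control (SE 0.13, adjusted p = 0.01) and by 0.46 in cells labelled fld (adjusted p = 0.0138). The latter was -0.39 without both replicate 4 arrays (adjusted p = 0.0684). A dimmer Egln1 probe fell by 0.93 in control and was at -0.12 in cells labelled fld (adjusted p = 0.654).

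The 6 other HIF targets divided. Ero1l, an oxidase that helps proteins fold in the endoplasmic reticulum, was at 1.40, 1.52, 0.76 and 1.11 untreated and 2.25, 2.11, 1.96 and 2.26 with LPS in control. In cells labelled fld it was at 1.06, 1.12, 1.44 and 0.89 untreated and 2.00, 2.08, 1.92 and 2.25 with LPS. Treated arrays stood above untreated ones in each genotype, and Ero1l rose by 0.95 and 0.94 (SE 0.16 each). Adm, which encodes the vasodilator peptide adrenomedullin, rose by 0.68 in control (SE 0.19, adjusted p = 0.0117). Its change in cells labelled fld was 0.28 (adjusted p = 0.242), and the difference between those changes was -0.40 (adjusted p = 0.686).

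Ndrg1, a stress-responsive gene, was at 2.37, 2.44, 1.92 and 2.37 untreated and 3.90, 3.95, 3.55 and 3.74 with LPS in control, a clear gap. In cells labelled fld it was at 2.56, 2.03, 3.38 and 2.77 untreated and at 2.76, 4.42, 2.92 and 4.70 with LPS. Only LPS replicates 2 and 4, the arrays with the lowest 75th percentiles, were above the untreated fld arrays. Ndrg1 rose by 1.51 in control (SE 0.38, adjusted p = 0.00775). In cells labelled fld the change was 1.01 (adjusted p = 0.0468), and without those 2 arrays it was 0.16 (adjusted p = 0.705). Ndrg1 lost its call in cells labelled fld in 23 of 30 other settings.

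Bnip3, a mitophagy receptor, fell by 0.56 in control (SE 0.17, adjusted p = 0.0205) and by 0.51 in cells labelled fld (adjusted p = 0.0375). P4ha1, a collagen prolyl hydroxylase subunit, fell by 0.36 (adjusted p = 0.0219) and 0.33 (adjusted p = 0.028). Without LPS-treated fld replicates 2 and 4 the changes there were -0.22 for Bnip3 (adjusted p = 0.349) and -0.24 for P4ha1 (adjusted p = 0.203). P4ha1 was at -0.33 without both replicate 4 arrays (adjusted p = 0.0671). In control Bnip3 lost its call in 5 of 30 other settings and P4ha1 in 7. Vegfa, the main angiogenic growth factor gene, changed by -0.23 and 0.05 with its brightest probe, and neither passed. Of the 3 Vegfa probes, 1 fell in control, by 0.68 (adjusted p = 0.0317).

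**Figure D3:**
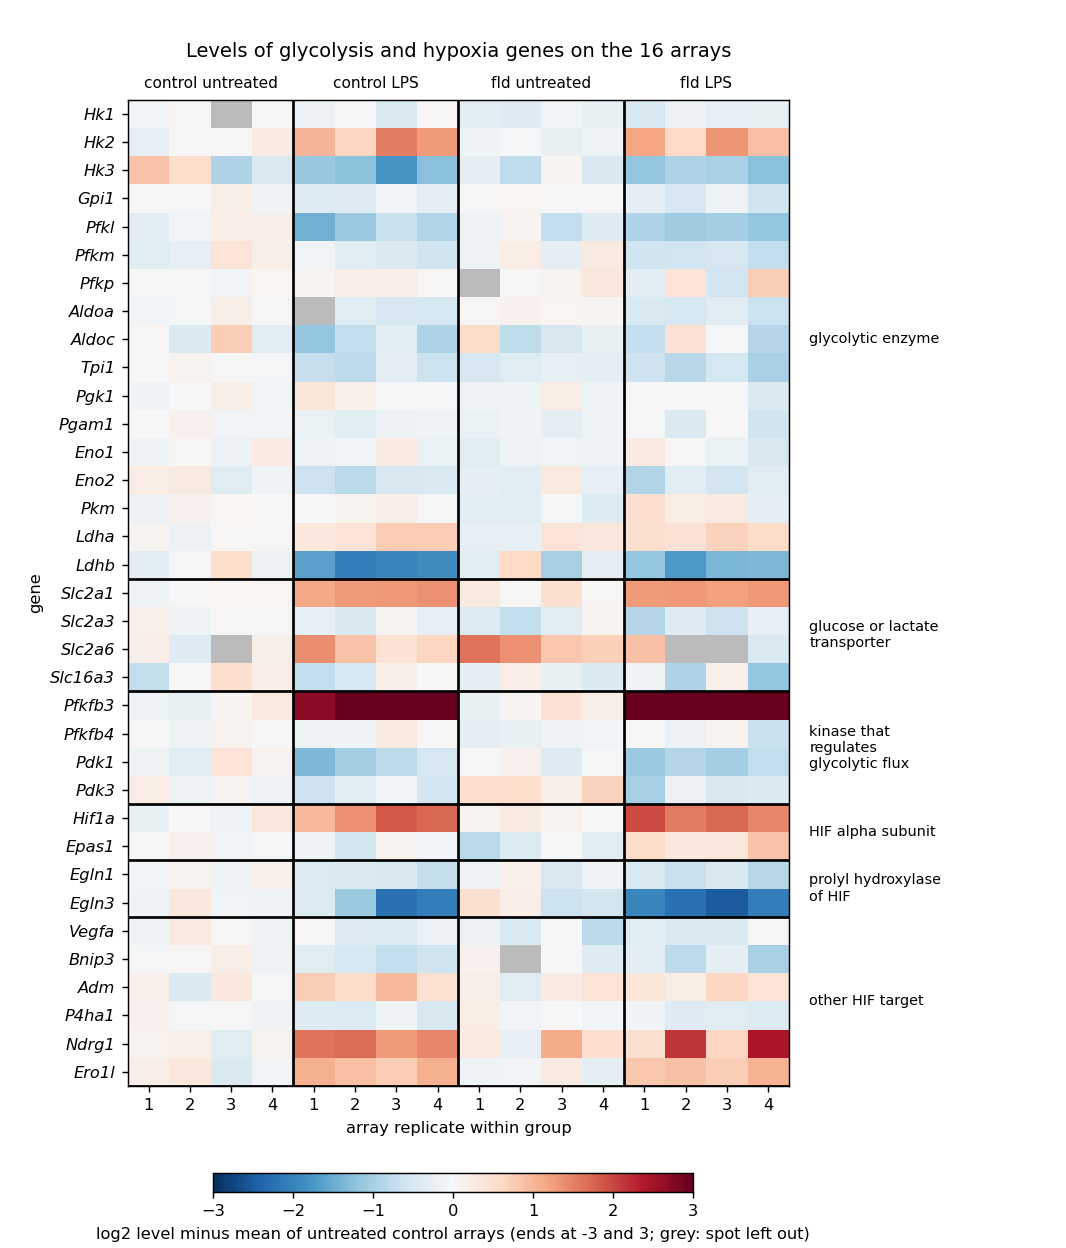
Rows are the 35 measured members grouped by role, columns the 16 arrays by group, and colour is the log2 level minus the mean of the untreated control arrays, from -3 (blue) to 3 (red), with grey for spots left out. The LPS columns are red for Hk2, Slc2a1, Pfkfb3, Hif1a and Ero1l and blue for Ldhb, Pfkl, Pdk1 and Egln3, and Ndrg1 is uneven among the LPS-treated fld arrays.

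Between genotypes few members passed the test, which does not show that their differences were small. Without LPS no member passed the limma test between cells labelled fld and control, while 4.87% of all features were higher and 0.212% lower in cells labelled fld. At an unadjusted p under 0.05 there were 4 of 35 members, Tpi1, Slc2a6, Pdk3 and Epas1, and 3231 of the 17466 features (18.5%). With LPS 1 member was higher, Epas1, and none lower, while 16.1% of all features were higher and 0.916% lower. The share of higher features depended on brightness. In 10 classes by mean level, it was 41.1% with LPS in class 1, the dimmest, and 0.401% to 2.29% in classes 7 to 10. Members lay in classes 3 to 10, most of them in 7 to 10, so the shares over all features are not matched to them. At an unadjusted p under 0.05 the count was also 1 member, against 4654 features (26.6%). Probes that did not stand for their gene gave 4 further calls between genotypes, with p-values adjusted over probes. Gpi1 was higher in cells labelled fld untreated (0.78, adjusted p = 0.0362) and with LPS (1.16, adjusted p = 0.00104). With LPS a Pfkfb3 probe was higher (0.66, adjusted p = 0.00958) and an Ero1l probe lower (-0.41, adjusted p = 0.0319). 

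The count of lower members with LPS depended on the scaling. With each array's median subtracted in place of its 75th percentile, 18 members were lower and 0 higher in cells labelled fld, and the median of all features moved from 0.03 to -0.37. The authors' deposited value table, which holds intensities divided by the array median, gave the same 18 and 0. These counts go with a shift of all features and are not read as a result about the members.

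The difference between the genotypes' LPS responses passed limma's test for no member (0% of all features higher and 0% lower), and at an unadjusted p under 0.05 there were 3 members, Slc2a6, Pdk3 and Epas1, with 1629 of 17466 features (9.33%) over all. With the probe that stands for the gene, the 95% interval of the difference was -0.40 to 0.56 for Pfkfb3, -0.52 to 0.11 for Slc2a1, -0.46 to 0.61 for Hif1a and -0.54 to 0.58 for Hk2, all including 0. The other 2 Pfkfb3 probes gave differences of 0.72 (SE 0.22, adjusted p = 0.322 over probes) and 0.52 (SE 0.21, adjusted p = 0.447), so that the size depends on the probe. For Ldhb it was -0.06 to 1.53 and for Egln3 -1.65 to 0.44, wide enough to leave room for differences of 1 log2 unit.

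Epas1 encodes HIF-2 alpha. Its levels were -2.79, -2.65, -2.85 and -2.82 untreated and -2.92, -3.35, -2.66 and -2.87 with LPS in control. They were -3.60, -3.18, -2.80 and -3.13 untreated and -2.24, -2.44, -2.44 and -1.91 with LPS in cells labelled fld. The LPS-treated fld arrays were above all other arrays, with replicate 4 highest. Epas1 rose with LPS by 0.92 in cells labelled fld (SE 0.18, adjusted p = 0.00098) and changed by -0.17 in control. With LPS it was higher in cells labelled fld by 0.69 (SE 0.18, adjusted p = 0.0116), and the difference between the LPS changes was 1.09 (SE 0.25, adjusted p = 0.174).

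The probe of Epas1 is dim. It belongs to class 3 of 10 classes of features by mean level, from dim to bright, in which 34.5% of features were higher in cells labelled fld with LPS, against 0.458% in the brightest class. Its other probe, also dim, was at 0.54 (adjusted p = 0.163) in that comparison and at 0.19 (adjusted p = 0.554) for LPS in cells labelled fld. Without both arrays labelled fld replicate 4 the difference was 0.58 (adjusted p = 0.0534), and without LPS-treated fld replicates 2 and 4 it was 0.61 (adjusted p = 0.0866). Quantile normalization gave 0.40 (adjusted p = 0.176). With LPS, 3 of 5 T and NK cell markers tested, 2 of 6 mesothelial and fibroblast markers and 2 of 4 neutrophil markers were also higher in cells labelled fld, among them Col1a1 (2.45) and Cd3e (1.41). The summed level of the T and NK cell markers was -0.50 to -0.17 with LPS in control and 0.10 to 1.43 in cells labelled fld, and the NK cell gene Ncr1 was near background on all 16 arrays. The part of brightness and of these markers in the Epas1 difference was not tested.

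Slc2a6 had the largest difference between the genotypes' responses in size, and it did not pass the test. Its levels were 4.14, 3.55 and 4.11 on untreated control arrays and 5.34, 4.80, 4.37 and 4.57 with LPS. They were 5.57, 5.31, 4.74 and 4.65 on untreated fld arrays and 4.82 and 3.49 with LPS. Untreated fld arrays were above untreated control arrays, and the fld groups overlapped. The scanner's outlier flags removed 3 spots, which read 4.42 (untreated control replicate 3), 4.61 (LPS fld replicate 2) and 4.14 (LPS fld replicate 3). The change was 0.83 in control (adjusted p = 0.088) and -0.91 in cells labelled fld (adjusted p = 0.078), and the fit used the arrays that remained. The difference between them was -1.75 (SE 0.51, adjusted p = 0.303), and untreated Slc2a6 was at 1.13 over control (adjusted p = 0.0832). These calls of Slc2a6 change with the processing. The untreated difference passed in 7 of 30 other settings, as did the LPS change in control, and the LPS change in cells labelled fld passed in 6, among them -0.80 with the outlier flags ignored (adjusted p = 0.0454). With the replicate number as a block all 4 comparisons passed, at 0.96, -1.09, 1.25 and -0.80, and the difference between the responses passed in no setting (adjusted p 0.0865 to 0.578).

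**Figure D4:**
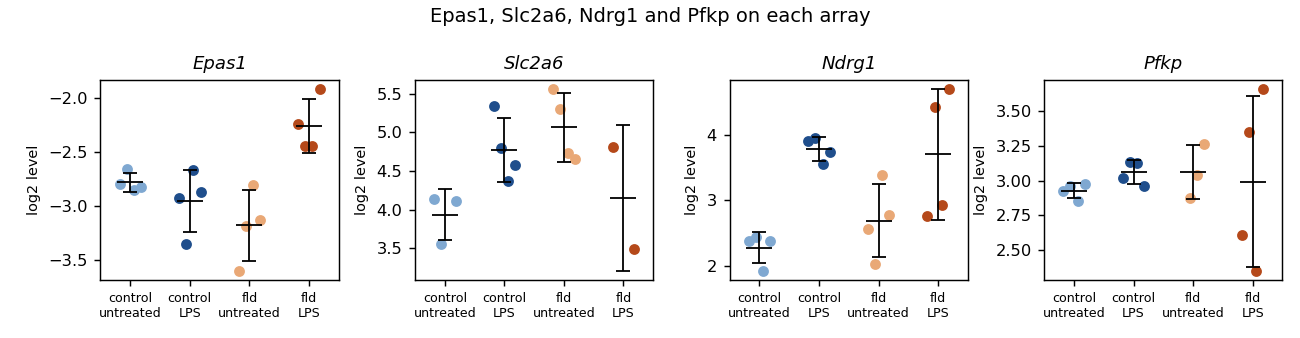
Log2 levels (vertical axis) of Epas1, Slc2a6, Ndrg1 and Pfkp on the arrays of each group, with the mean and SD of the arrays plotted; Slc2a6 has 3 untreated control and 2 LPS-treated fld points, and Pfkp has 3 untreated fld points. Epas1 is highest on the LPS-treated fld arrays, and Ndrg1 and Pfkp split these arrays into replicates 2 and 4 above and 1 and 3 below.

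Further genes of the same pathways were counted from lists beside the members. Of all features 14.5% rose and 14.9% fell with LPS in control, and 21.6% rose and 18.0% fell in cells labelled fld. The counts of the lists were not tested against these shares. Of 29 other glycolysis and pyruvate genes measured, 6 rose and 9 fell with LPS in control, and 5 rose and 8 fell in cells labelled fld, with medians of -0.10 and -0.12. Slc16a1, which encodes the lactate and pyruvate transporter MCT1, went from 1.68, 1.55, 1.29 and 1.35 to 3.55, 3.96, 4.04 and 4.22 with LPS in control. It rose by 2.47 there and by 2.73 in cells labelled fld, with no overlap of treated and untreated arrays. Fbp1, the gluconeogenic fructose bisphosphatase, rose by 1.28 and 1.25, and Arrdc4, an arrestin-like gene related to Txnip, by 0.83 and 1.20. Slc16a7, which encodes the transporter MCT2, fell by 1.56 and 1.80, and Slc2a8, which encodes GLUT8, by 1.19 and 0.99.

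Pdk4, another pyruvate dehydrogenase kinase gene, was not well above background on any LPS-treated control array and was at least 1.65-fold lower there than untreated (adjusted p = 0.0104). The bound sets the untreated mean against the dimmest probe that the scanner called well above background, or the probe's own signal where higher. Pdp1, a phosphatase that opens pyruvate dehydrogenase, fell by 0.57 in control and by 1.07 in cells labelled fld.

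Of 34 other HIF pathway genes measured, 10 rose and 2 fell with LPS in control, and 13 rose and 1 fell in cells labelled fld, with medians of 0.18 and 0.14. Loxl2, a lysyl oxidase, rose by 3.77 and 3.45. P4ha2, a collagen prolyl hydroxylase subunit like P4ha1, rose by 2.55 and 2.63, and Ddit4, an inhibitor of mTOR signalling, by 2.45 and 2.24. P4ha2 thus rose while the member P4ha1 fell. Hilpda, a lipid droplet protein gene, rose by 2.08 and 2.69, and all its LPS-treated arrays were above the untreated ones of their genotype. Stc1, which encodes the hormone stanniocalcin, rose by 2.83 in cells labelled fld (adjusted p = 0.0362), from 1 array well above background untreated to 3 with LPS. Bnip3l, a mitophagy receptor related to Bnip3, fell by 1.04 and 0.83, and the nuclear receptor gene Rora by 0.83 in control.

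**Figure D5:**
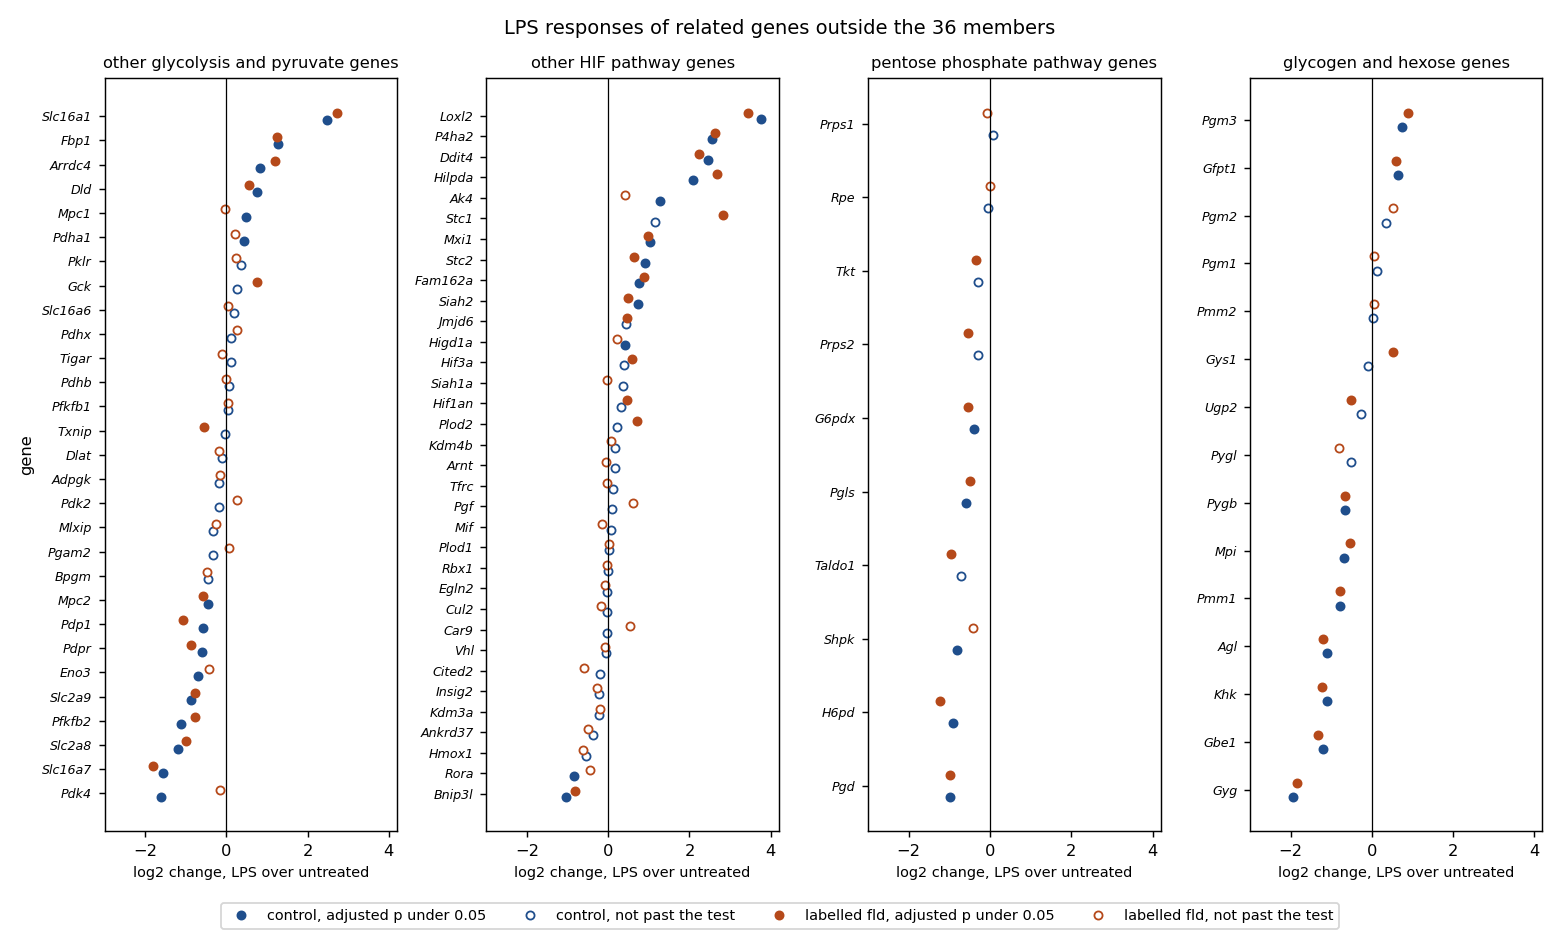
Panels hold 4 lists of related genes, sorted by their control change, and the horizontal axis is the log2 change with LPS over untreated in control arrays (blue) and arrays labelled fld (orange), with filled points at an adjusted p under 0.05. Points of the HIF list reach 3.77 on the right, and the pentose phosphate list has no filled point right of 0.

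The pentose phosphate pathway makes NADPH and ribose from glucose 6-phosphate. Of 10 pentose phosphate genes measured, 5 fell in control and 7 in cells labelled fld, and none rose. Pgd, the oxidative enzyme 6-phosphogluconate dehydrogenase, was at 6.09, 6.23, 6.59 and 6.05 untreated and 5.61, 5.32, 5.05 and 5.09 with LPS in control. Pgd fell by 0.98 and 1.0, H6pd, the hexose 6-phosphate dehydrogenase of the endoplasmic reticulum, by 0.91 and 1.24, and Shpk, sedoheptulokinase, by 0.81 in control. Taldo1, transaldolase, fell by 0.95 in cells labelled fld.

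Of 15 glycogen and hexose genes, 2 rose and 7 fell in control, and 3 rose and 8 fell in cells labelled fld. Gyg, glycogenin, fell by 1.94 and 1.84, and the branching enzyme gene Gbe1 by 1.20 and 1.32. Khk, fructokinase, fell by 1.11 and 1.22. Pgm3 and Gfpt1, of hexosamine synthesis, rose by 0.73 and 0.64 in control and by 0.88 and 0.60 in cells labelled fld, where the glycogen synthase gene Gys1 rose by 0.53.

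Between genotypes with LPS, 4 of the 34 other HIF genes were higher in cells labelled fld and none lower. They were Hif3a (0.95), Car9 (0.97), Plod2 (0.94) and Pgf (0.74), named after their values were seen. Their probes lay in brightness classes 5, 4, 1 and 4 of 10, in which between 12.8% and 41.1% of features were higher. Untreated, Hif3a (0.75), Ak4 (1.01) and Txnip (0.79) were higher in cells labelled fld. With LPS, 1 of the 29 other glycolysis genes was higher in cells labelled fld, Pdk2 (0.92, brightness class 4).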

How the data were processed

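Single-colour Agilent arrays of 4 groups with 4 arrays each were used. The authors deposited 1 scanner table per array, made with Agilent Feature Extraction 9.5.1.1 per the file headers, and the processed signal was used as an intensity. The deposited value table, whose column unit is unstated, was found to hold the same intensity divided by each array's median, and served as an alternative. The dye, scanning and background steps are those of the scanner software, per the file headers. Genes were named through RefSeq by accession, then by symbol, synonym or the name on the array.

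From the 43379 non-control spots, log2 of the deposited intensity minus the 75th percentile of each array was computed. Spots with an outlier flag (1.10% to 1.52% per array) were set missing. A probe was kept if all 4 arrays of some group called it well above background (25535 probes), and the brightest kept probe stood for its gene. All groups were fitted together with limma 3.58.1 in R 4.3.3 (lmFit and eBayes), and p-values were adjusted by Benjamini-Hochberg over 17466 features. The fit was tested on simulated data. The number of arrays limits the precision. The labels do not say whether replicate numbers pair the arrays, and the main fit did not pair them. Deviations from the group mean were correlated between untreated and LPS-treated arrays. In control they correlated at 0.089 to 0.258 for same numbers and at -0.257 to 0.213 for different numbers. In cells labelled fld the ranges were -0.101 to 0.202 and -0.418 to 0.376. Whether the arrays are paired cannot be told from these values.

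All members are described by role, and per-array values are given for those with the largest changes that passed the LPS tests and those called between genotypes. From each list of further genes, up to 3 of the highest and 3 of the lowest called are named. A gene of the HIF list is not reported here. The members, lists and tests were chosen with earlier results of these data known. Alternatives covered background correction, scaling, the dim-probe filter, the probe rule, the arrays in the fit, a replicate block, array weights and arrays left out.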

Additional observations from a re-analysis of the deposited data

Results flagged for a closer look

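Among 134 groups of 4 values, 5 arrays stood far from the other 3 of their group, where chance gives about 1 in 20 groups (6.7 here). Eno2 was at -0.59 on untreated fld replicate 3, and the other arrays of that group were at -1.22 to -1.13. Pgk1 was at 5.32 on the same array, with the others at 4.94 to 4.99, and at 4.65 on LPS-treated fld replicate 4, with the others at 5.08 to 5.11. Ndrg1 was at 1.92 on untreated control replicate 3, with the others at 2.37 to 2.44. Egln3 was at -1.46 on untreated control replicate 2, with the others at -1.90 to -1.85.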

How the results depend on the processing

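Of 5245 results of members under 30 other settings, 5054 were the same in call, 105 lost a call, 81 gained one and 5 reversed. Median scaling and the authors' table are the same scaling, yet each is counted as a setting. Each of them gave 20 of the gained calls. Results without a call in either fit counted as the same whatever their sign, so the 5054 is no count of kept directions. Hk1 with LPS in control counted as the same in all 30 settings, with changes from -0.32 to 0.20. Leaving out both arrays labelled fld replicate 4, or LPS-treated fld replicates 2 and 4, was chosen after the data were seen, as was ignoring the outlier flags. The LPS calls of Pfkfb3, Slc2a1, Hif1a, Hk2, Ero1l, Ldhb and Pfkl held in both genotypes in all 30, and those of Egln3 in the 29 that kept it (it was not well above background on all 16 arrays).

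With LPS, 1 member was higher in cells labelled fld and 0 lower. The higher count was 0 with quantile normalization, median scaling, the authors' table, both fld replicates 4 left out, or LPS-treated fld replicates 2 and 4 left out, and 3 with the mean over probes. The lower count was 18 with median scaling and the authors' table, and 1 with quantile normalization, the replicate block, or LPS-treated fld replicates 2 and 4 left out. Untreated, 0 members were higher and 0 lower. The higher count was 1 with the mean over probes, only the arrays compared, the replicate block, or either pair of arrays left out, 2 with array weights, and 0 to 1 with 1 array left out. The lower count was 1 with array weights. Without both fld replicates 4, 7 members in place of 12 fell with LPS in cells labelled fld. The causes were not tested.

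With the replicate block, Slc2a6 passed the LPS tests (0.96 in control, -1.09 in cells labelled fld) and both genotype tests (1.25 untreated, -0.80 with LPS), and Ndrg1 lost its call in cells labelled fld (adjusted p = 0.0576). With LPS, Slc2a1 in cells labelled fld against control was -0.39 (adjusted p = 0.0364) under median scaling and with the authors' table. With the mean over probes, Gpi1 was 0.18 for LPS in cells labelled fld (adjusted p = 0.147), and 0.39 untreated (adjusted p = 0.0309) and 0.53 with LPS (adjusted p = 0.00142) against control. With 1 array left out, 6 to 9 members rose and 8 to 13 fell with LPS in cells labelled fld, and 7 to 9 rose and 9 to 12 fell in control. In cells labelled fld Pkm lost its call in 12 settings, Ldha in 9, Bnip3 in 8 and Tpi1 in 7. In control P4ha1 lost its call in 7 settings, Bnip3 in 5, and Ldha and Eno2 in 4 each. These are not all the members whose calls changed. Egln3 was not well above background on 1 LPS-treated fld array.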
